A study of Mus musculus with 12 samples.

Results

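Lad1 and Fam71b are 2 protein-coding genes of the mouse, out of 49585 genes counted in a ribosome profiling study of activated CD4 T cells. Both were matched by gene symbol and followed through all 12 libraries. They were selected on their log2 fold change of total RNA in cells that lack the cap methyltransferase RNMT, with their ribosome-protected fragments (RPFs) and the ratio of RPFs to total RNA also known, so their differences between genotypes are given as description, without a test. The study compared CD4 T cells of Rnmt fl/fl CD4cre - mice (control) with those of Rnmt fl/fl CD4cre + mice (Rnmt cKO), all female. Naive CD4 T cells were isolated from lymph nodes with a kit, cultured for 20 h on plates coated with antibodies to CD3 (5 ug/ml) and to CD28 (1 ug/ml) in medium with 50 uM mercaptoethanol, and held in 0.1 mg/ml cycloheximide for 1 min before lysis. Total cytoplasmic RNA and RPFs were each sequenced in 3 libraries per genotype, and the labels do not say whether libraries of the same number share a culture. The floxed Rnmt alleles are present in both genotypes, and no control library carries the Cre alone. The Cre is driven by the Cd4 gene, which is switched on in thymocytes that carry both CD4 and CD8, so deletion precedes the naive cell and is present throughout activation. Between 15079703 and 22629563 reads were counted on genes per total RNA library, and between 4123271 and 10661356 per RPF library, of which RPF library 3 of the Rnmt cKO was the shallowest.

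RNMT adds a methyl group to the guanosine cap at the 5′ end of RNA polymerase II transcripts, and the methylated cap is the site where the translation initiation factor eIF4E binds. Ladinin 1, the product of Lad1, was described as an anchoring filament protein of the basement membrane under epithelia and also binds actin in epithelial cells. Fam71b belongs to a family of testis genes whose products bind the Golgi GTPase RAB2, and it is best known from developing sperm cells. Neither gene is used as a marker of CD4 T cells. RPFs are the stretches of mRNA covered by ribosomes, so RPF reads over total RNA reads give a relative measure of ribosome load, called translational efficiency (TE).

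Lad1 (ENSMUSG00000041782) lies on the plus strand of chr1:135818598-135833342 (GRCm38) with 10 exons in its coding transcript. Fam71b (ENSMUSG00000020401) lies on the plus strand of chr11:46396559-46407982, and its coding transcript occupies chr11:46404730-46407982 in 2 exons, which carry 624 and 1371 coding nucleotides. A non-coding Fam71b transcript of 3 exons begins at 46396559 and shares part of the second coding exon. Reads were counted per gene, so reads of that transcript and of the coding one cannot be told apart where they share sequence. The authors counted on the basic subset of GENCODE vM12. In vM21 the non-coding transcript is outside that subset, so its other exons may not have been counted. No other gene of the annotation overlaps either one. The 250 bases before each start site, from RefSeq on GRCm38 and read 5′ to 3′ on the plus strand, are shown because the RNA of both genes was higher in the Rnmt cKO. Capitals mark the matches to any of the motifs searched, on either strand.
Lad1, chr1:135818348-135818597: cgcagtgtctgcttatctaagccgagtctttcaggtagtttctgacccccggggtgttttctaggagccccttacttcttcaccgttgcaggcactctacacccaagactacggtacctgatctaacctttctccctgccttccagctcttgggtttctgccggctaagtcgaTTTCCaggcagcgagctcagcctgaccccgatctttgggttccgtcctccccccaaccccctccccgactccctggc
Fam71b, chr11:46404478-46404727: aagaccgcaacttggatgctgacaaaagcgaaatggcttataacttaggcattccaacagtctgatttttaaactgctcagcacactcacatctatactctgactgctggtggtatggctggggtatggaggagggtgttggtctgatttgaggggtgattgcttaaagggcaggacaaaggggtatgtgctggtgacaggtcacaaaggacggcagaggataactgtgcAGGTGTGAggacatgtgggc
The capitals before Fam71b are AGGTGTGA, a sequence bound by T-box factors, 20 to 13 bases before the start site and present in 1.12% of 32851 windows of the same length before other start sites. This motif was added to the search after the sequence had been read. The capitals before Lad1 are TTTCC, the opposite strand of the NFAT core GGAAA, 77 to 73 bases before the start site, and 55.6% of windows hold that core. The windows of the pair had no match to the other 8 motifs searched, namely TGANTCA (AP-1, in 6.75% of windows), TTCNNNGAA (STAT, 7.02%), TGACGTCA (CREB, 1.55%), CACGTG (E-box, 6.02%), TATAAA (bound by TBP, 12.4%), GGGCGG (Sp1, 32.7%), TGTGGTT (Runx, 4.4%) and CCGGAAGT (Ets, 2.88%). The GC content was 57.6% before Lad1 and 49.2% before Fam71b, against a median of 52.4%. These matches describe letters and not factors on the DNA.

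The libraries were first read for the deleted gene. Rnmt total RNA was 95.5, 94.1 and 94.3 CPM in the controls and 29.3, 32.4 and 30.4 CPM in the Rnmt cKO, where CPM is the count scaled to a library of 1000000 reads after normalization for composition. Rnmt RPFs were 104, 87.9 and 98.9 CPM in the controls and 10.5, 10.4 and 9.60 CPM in the Rnmt cKO. The genotypes did not overlap in either kind of library, so every library matched its label.

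Lad1 was low in control cells and among the more abundant transcripts of Rnmt cKO cells. Its total RNA was 7.53, 7.94 and 8.41 CPM in the controls, from 142, 150 and 156 reads. In the Rnmt cKO it was 167, 216 and 143 CPM, from 2462, 4186 and 3312 reads. The control libraries were within a narrow range of each other and far below the lowest Rnmt cKO library. The mean was 7.96 ± 0.438 CPM in controls and 175 ± 37.1 CPM in the Rnmt cKO (SD, n = 3), and the fitted log2 fold change was 4.46 (SE 0.17). CPM values are relative to each library, so a change in the cells that express a gene and in its RNA per cell cannot be told apart, here or below. The paper reports less mRNA per activated Rnmt cKO cell. For that reason, it states, RNA sequencing overestimates increases and underestimates decreases of single genes in these cells.

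Lad1 RPFs were 9.02, 10.4 and 12.3 CPM in the controls, from 96, 69 and 100 reads. They were 138, 227 and 129 CPM in the Rnmt cKO, from 1181, 2328 and 524 reads. Library 2 was the highest of the Rnmt cKO in both kinds. The mean RPF level was 10.6 ± 1.63 CPM in controls and 165 ± 54.3 CPM in the Rnmt cKO (SD, n = 3), a log2 fold change of 3.98 (SE 0.25). Lad1 thus had RPFs in every library of either genotype.

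Fam71b started lower and its Rnmt cKO libraries were less alike. Its total RNA was 1.06, 1.69 and 2.32 CPM in the controls, from 20, 32 and 43 reads. In the Rnmt cKO it was 72.2, 74.1 and 21.1 CPM, from 1063, 1437 and 488 reads. Libraries 1 and 2 of the Rnmt cKO were close together and library 3 was far below them, but the lowest Rnmt cKO library was still well above the highest control. The mean was 1.69 ± 0.628 CPM in controls and 55.8 ± 30.1 CPM in the Rnmt cKO (SD, n = 3), with a log2 fold change of 5.03 (SE 0.57). Without library 3 of the Rnmt cKO the log2 fold change was 5.44.

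Fam71b RPFs were 3.38, 5.73 and 3.92 CPM in the controls, from 36, 38 and 32 reads. They were 14.7, 26.4 and 17.2 CPM in the Rnmt cKO, from 126, 270 and 70 reads. The genotypes did not overlap, but they were closer than in total RNA, and library 3 of the Rnmt cKO was no longer the lowest. The mean was 4.34 ± 1.23 CPM in controls and 19.4 ± 6.12 CPM in the Rnmt cKO (SD, n = 3), a log2 fold change of 2.19 (SE 0.28).

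**Figure D1:**
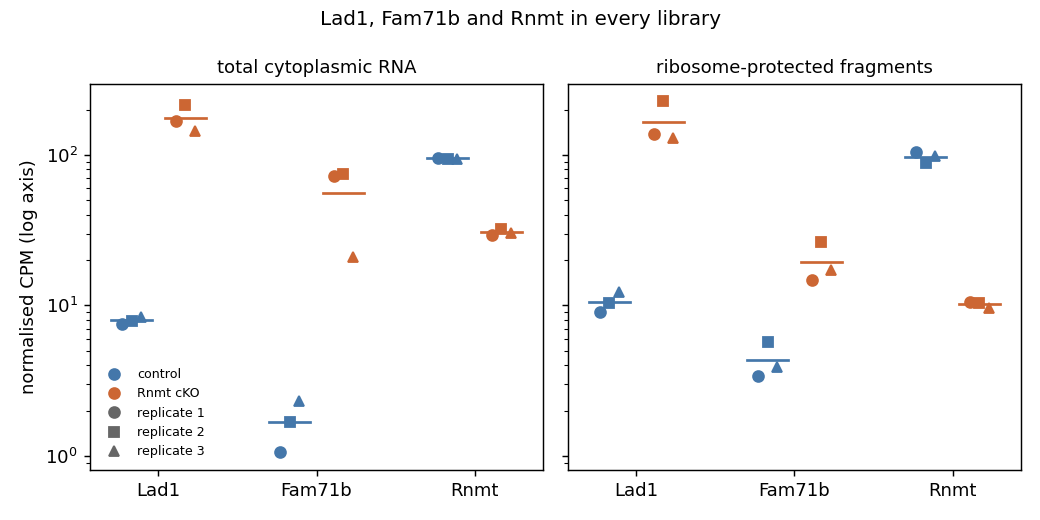
Normalised CPM on a log axis of Lad1, Fam71b and Rnmt in the 6 total RNA libraries (left) and the 6 RPF libraries (right), with one symbol per library and a line at each group mean. Lad1 and Fam71b were higher and Rnmt was lower in every Rnmt cKO library than in any control, and library 3 of the Rnmt cKO (triangle) was low for Fam71b in total RNA at 21.1 CPM.

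Against all genes, the log2 fold changes of the pair stood near the top in total RNA. Of 11519 genes tested in total RNA, 26.3% were increased and 28% decreased in the Rnmt cKO at an adjusted p of 0.05 (quasi-likelihood test of edgeR, adjusted by Benjamini-Hochberg over all genes tested). In RPF, 14.1% of 11428 genes were increased and 15.7% decreased. The genotypes did not overlap, with the Rnmt cKO higher, for 30% of the genes in total RNA and 22.2% in RPF. By size of the log2 fold change, Fam71b ranked 5 and Lad1 ranked 9 in total RNA. In RPF, Lad1 ranked 12 and Fam71b 167. The genes above Fam71b in total RNA were Gh (growth hormone) and Slc1a2 (a glutamate transporter), both with control means below 1 CPM, and 2 loci not annotated as protein-coding, and Arc, an immediate early gene, stood between the pair at 4.65. The median log2 fold change of all tested genes was -0.004 in total RNA and 0.008 in RPF.

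The description of these genes as near-silent did not hold by a limit of 1 CPM in control total RNA. Of the genes tested in total RNA, 331 had a control mean below 1 CPM, and neither Lad1 nor Fam71b was among them. Of these, 195 had no control library above 1 CPM and passed the filter on low counts only through the Rnmt cKO. Genes with a mean below 1 CPM in either genotype are therefore left out of the counts of calls among neighbours and lists below, and those named carry no test. At 7.96 CPM, Lad1 was above 25.4% of the tested genes in the controls. At 1.69 CPM, Fam71b was above 7.94% of them, and in RPF the shares were 29.2% for Lad1 and 17.8% for Fam71b. In Rnmt cKO total RNA Lad1 was above 91.6% and Fam71b above 67.7% of tested genes, and in Rnmt cKO RPF 87.6% and 39.7%.

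Among 798 tested genes with a control mean of 1 to 2 CPM, the median log2 fold change was 0.003 and 1 gene, Fam71b, exceeded 16-fold. Among 1034 genes of 5 to 10 CPM the median was -0.12 and 1 gene, Lad1, exceeded 16-fold. Between them, Arc was the gene past 16-fold among 1121 of 2 to 5 CPM. Lad1, at 175 CPM, had the highest Rnmt cKO mean of all genes with a control mean below 10 CPM. Fam71b had the highest of all genes below 2 CPM, of which 5 exceeded 10 CPM in the Rnmt cKO.

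**Figure D2:**
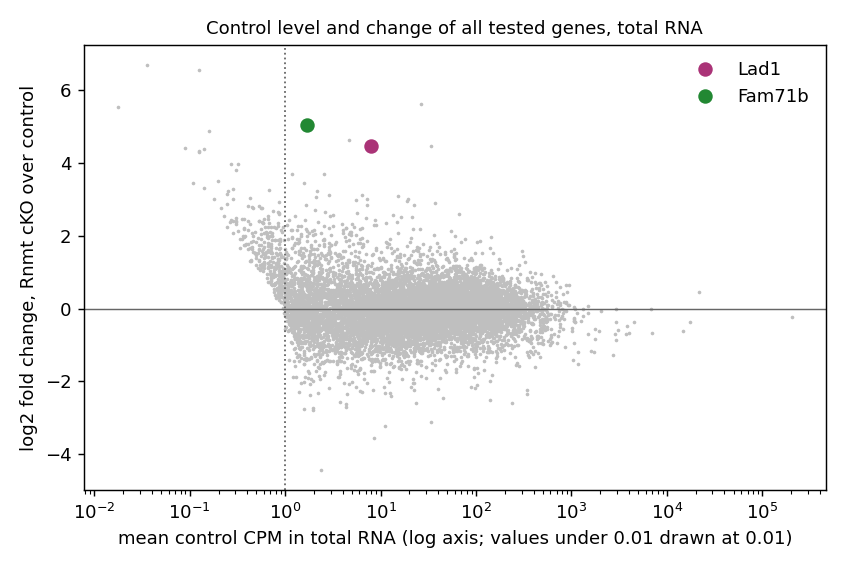
Log2 fold change in total RNA, Rnmt cKO over control, against the mean control CPM on a log axis for the 11519 tested genes (grey), with Lad1 and Fam71b marked and a dotted line at 1 CPM. Both lie right of the line, at 7.96 and 1.69 CPM, and above nearly all genes of like control level.

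RPFs relative to total RNA were lower in the Rnmt cKO for both genes, and by more for Fam71b. In libraries of the same number, Lad1 RPF CPM over total RNA CPM was 1.20, 1.31 and 1.46 in the controls and 0.827, 1.05 and 0.901 in the Rnmt cKO. For Fam71b it was 3.19, 3.38 and 1.69 in the controls and 0.204, 0.356 and 0.817 in the Rnmt cKO. Every Fam71b ratio was above 1 in the controls and below 1 in the Rnmt cKO, whereas one Lad1 ratio of the Rnmt cKO was above 1. Equal CPM is not the level of the median gene, which lay at log2 0.19 in the controls and 0.20 in the Rnmt cKO. Lad1 was also above that level in all controls (log2 0.26, 0.39 and 0.54). It was below that level in every Rnmt cKO number (log2 -0.27, 0.07 and -0.15). The ratios did not overlap between genotypes for either gene, and the share of all genes for which this holds was not counted. Library 3 of the Rnmt cKO, which was low in Fam71b total RNA, had the highest Fam71b ratio of that genotype.

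In the model over all 12 libraries, RPF over total RNA of Fam71b was 1.32 (SE 0.62) on the log2 scale in the controls, above 89.6% of 10668 genes. In the Rnmt cKO it was -1.49 (SE 0.40), above 5.99% of genes. Lad1 lay nearer the middle, at 0.40 (SE 0.27) and above 59.3% of genes in the controls, and at -0.07 (SE 0.19) and above 39.0% in the Rnmt cKO. The median gene was at 0.19 and 0.20. The change in TE between genotypes, fitted as an interaction, was -2.81 (SE 0.74) for Fam71b, the 4th lowest of the 10668 genes. For Lad1 it was -0.47 (SE 0.33), above 9.03% of genes, and the median gene was at 0.04. These values use the total RNA libraries by which the genes were chosen, in which a high value in the Rnmt cKO also lowers the TE, and carry no test.

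**Figure D3:**
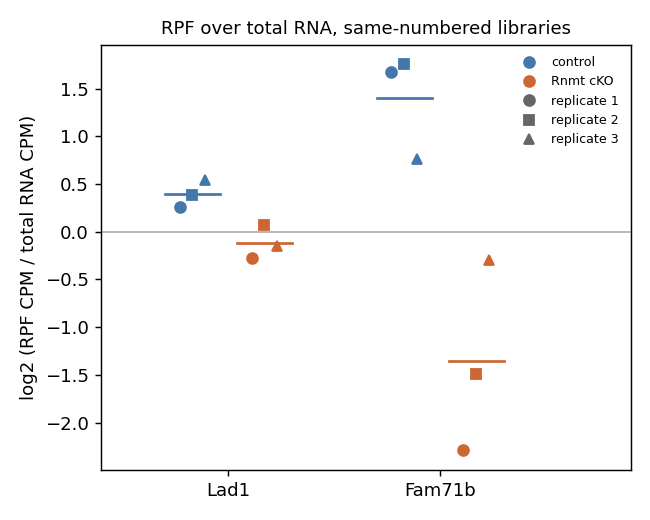
Log2 of RPF CPM over total RNA CPM for Lad1 and Fam71b in libraries of the same number, with lines at the group means and a grey line at equal CPM. Fam71b passes from above the grey line in all 3 controls to below it in all 3 Rnmt cKO numbers, and Lad1 shifts by less.

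Per length, Lad1 was the more abundant of the pair in every library. Total RNA CPM per kb of exons was 2.66 ± 0.146 for Lad1 and 0.774 ± 0.288 for Fam71b in the controls, and 58.6 ± 12.4 and 25.5 ± 13.8 in the Rnmt cKO (SD, n = 3). RPF CPM per kb of coding sequence was 6.67 ± 1.03 for Lad1 and 2.18 ± 0.616 for Fam71b in the controls, and 104 ± 34.3 and 9.75 ± 3.07 in the Rnmt cKO. In total RNA the ratio of the Lad1 level to the Fam71b level was 5.18, 3.42 and 2.65 in the controls and 1.69, 2.13 and 4.95 in the Rnmt cKO, so the genotypes overlapped. In RPF it was 3.36, 2.29 and 3.94 in the controls and 11.8, 10.9 and 9.43 in the Rnmt cKO, without overlap. The log2 fold change of Fam71b minus that of Lad1 was 0.57 (SE 0.59) in total RNA and -1.78 (SE 0.38) in RPF, where the errors were combined as if the genes were independent.

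The transcripts also differ in build. The Fam71b coding transcript has 2 exons, and 2.25% of 9990 coding genes tested in both kinds of library have fewer (median 9). Its 3′ UTR, stop codon included, is 117 nucleotides long (median 963) and its 5′ UTR 73 (median 166), around an open reading frame of 665 codons. Lad1 has 10 exons, a 5′ UTR of 381 nucleotides, longer than in 84.0% of those genes, a 3′ UTR of 1028 nucleotides and 528 codons. Lad1 transcripts had a GC content of 57.8% and those of Fam71b 53.4%, against a median of 50.2%.

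The reads came from the coding strand of each gene. In Rnmt cKO total RNA, 10 Lad1 reads lay on the opposite strand beside 9960 on its own, or 0.100% (Wilson 95% interval 0.0545 to 0.184%). For Fam71b it was 19 beside 2988, or 0.632% (0.405 to 0.985%). In control total RNA, 3 Fam71b reads lay on the opposite strand beside 95, or 3.06% (1.05 to 8.62%). Over all genes 2.53 to 4.64% of reads per library were antisense. In RPF no antisense Fam71b read was found beside 466 reads in the Rnmt cKO, which allows a share of up to 0.818%. The intervals cover counting error only, since duplicate reads were not separated.

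The genes around the pair were read for changes of the wider region. The 4 nearest protein-coding genes on each side gave 16 neighbours, of which 8 passed the filter in total RNA and 8 in RPF. Leaving out those with a mean below 1 CPM in a genotype (Tnni1 and Havcr2 in total RNA, Tnni1 and Igfn1 in RPF), 6 were counted in each kind. In total RNA 1 was increased and 1 decreased, a share for each of 16.7%, and over all genes counted the same way 25.3% were increased and 28.2% decreased. In RPF 2 were increased and 2 decreased, a share for each of 33.3%, beside 13.7% and 16.1% of all genes. In TE 0 of 6 passed, with edgeR, with DESeq2 and at an unadjusted edgeR p of 0.05, and of all genes tested in TE 3.24% were increased and 6.57% decreased.

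On the Lad1 side, Tnni1 (slow skeletal troponin I), 7.61 kb before Lad1 on the same strand, had 12, 5 and 9 total RNA reads in the controls and 36, 91 and 55 in the Rnmt cKO. In RPF it had 6, 0 and 3 reads in the controls and 22, 19 and 7 in the Rnmt cKO. The Rnmt cKO libraries were above the controls in both kinds, and Tnni1 passed the filter only through them, so no test is given. Phlda3, a p53 target that restrains AKT, was 30.6, 38.1 and 28.8 CPM in the controls and 89.1, 99.7 and 112 CPM in the Rnmt cKO. Its log2 fold change was 1.62 in total RNA (SE 0.12, edgeR adjusted p = 3.9e-05) and 1.91 in RPF (SE 0.08, adjusted p = 2.0e-05). The genotypes did not overlap for Phlda3 in either kind.

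Tnnt2 (cardiac troponin T), 3.01 kb beyond the end of Lad1 on the same strand, did not pass the filter. It had 7, 4 and 5 total RNA reads in the controls and 28, 68 and 22 in the Rnmt cKO, but at most 4 RPF reads in any library. Csrp1, a cytoskeletal LIM protein, had a log2 value of 0.12 in total RNA (edgeR adjusted p = 0.348, and 0.0395 without Rnmt cKO library 2). Tmem9 had log2 values of -0.02 in total RNA (edgeR adjusted p = 0.883) and -0.36 in RPF, which passed in edgeR at an adjusted p of 0.0396. That call was lost with DESeq2 (adjusted p = 0.112) and without any 1 library other than Rnmt cKO library 3 (edgeR adjusted p = 0.062 to 0.136). Igfn1 had 1 total RNA read in all, and 2, 1 and 19 RPF reads in the controls and 12, 2 and 19 in the Rnmt cKO. Nav1 and Pkp1 had at most 20 reads over the 6 libraries of either kind.

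On the Fam71b side, Cyfip2, a subunit of the actin-regulating WAVE complex, fell by 0.64 in total RNA (SE 0.12, edgeR adjusted p = 0.0022) and by 0.63 in RPF (SE 0.06, adjusted p = 0.000358), on the log2 scale. Havcr2, which encodes the inhibitory receptor TIM-3, had 2, 5 and 8 total RNA reads in the controls and 27, 28 and 28 in the Rnmt cKO, through which alone it passed the filter, so no test is given. Med7, a Mediator subunit, had a log2 value of -0.14 (edgeR adjusted p = 0.290), and Fndc9, Nipal4, Gm12169 and BC053393 had 0 to 2 reads in total RNA. The neighbours counted in total RNA were thus of mixed sign, and Phlda3, the one increased, had a smaller log2 fold change than Lad1 or Fam71b.

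Genes that share the known roles of the pair were mostly too low to be tested. The counts below stand beside shares of all genes counted the same way, which in total RNA were 25.3% up and 28.2% down and in RPF 13.7% up and 16.1% down. Of 13 basement membrane anchoring and hemidesmosome genes, 5 were tested in total RNA, 0 increased (likewise with DESeq2 and at an unadjusted edgeR p of 0.05) and 1 decreased, Itga6 (integrin alpha 6, log2 -0.89, SE 0.07, edgeR adjusted p = 3.6e-05). The median of the 5 was 0.02, and in RPF again 0 increased by these 3 readings and 1 decreased of 5 tested (median 0.09). The hemidesmosome genes Col17a1 and Itgb4 had 2 and 5 total RNA reads over 6 libraries. Of 21 epithelial genes, 4 were counted in total RNA (median -0.18) and 4 in RPF (median -0.10). Tjp3, a tight junction scaffold, decreased in total RNA (-0.99, SE 0.18, edgeR adjusted p = 0.00243), and 0 of 4 were called in RPF by edgeR or DESeq2 and 1, Epcam, at an unadjusted edgeR p of 0.05. Cldn4, a tight junction claudin with a control mean below 1 CPM, was 1.01, 0.582 and 0.539 CPM in control and 1.22, 3.04 and 1.86 CPM in Rnmt cKO total RNA, where the lowest library lay just above the highest control. The summed epithelial level was 27.0 to 30.9 CPM in control and 26.2 to 26.9 CPM in Rnmt cKO total RNA, with Krt5, Krt14 and Krt19 at 0 reads.

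The other 6 Fam71 genes had 0 to 43 reads over the 6 total RNA libraries and were not tested. Of the Rab2 genes, whose products are partners of the family, Rab2b was increased in total RNA (0.40, SE 0.09, edgeR adjusted p = 0.00775) and Rab2a in RPF (0.23, SE 0.08, edgeR adjusted p = 0.049). The call of Rab2a was lost with DESeq2 (adjusted p = 0.0655) and without any 1 library other than Rnmt cKO library 2 (edgeR adjusted p = 0.0665 to 0.147), and that of Rab2b with the reads of both strands (0.163). The medians of the pair tested were 0.24 in total RNA and 0.16 in RPF. Of 26 male germ cell genes, 1 passed the filter in either kind. This was Zpbp, an acrosomal protein, with a log2 fold change of 0.57 in total RNA (SE 0.13, edgeR adjusted p = 0.00668) and a value of 0.90 in RPF (edgeR adjusted p = 0.166). Protamine genes Prm1 and Prm2 had 0 reads in total RNA. The summed level of the germ cell genes was 5.77 to 6.14 CPM in the controls and 7.87 to 9.18 CPM in the Rnmt cKO, without overlap, and Zpbp was the most abundant of them.

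Markers of T cells and of other cells were read in the same libraries. All 11 CD4 T cell markers were tested in both kinds. Cd4 was 350, 324 and 316 CPM in control and 298, 271 and 315 CPM in Rnmt cKO total RNA, without a call (log2 -0.16, edgeR adjusted p = 0.102, and 0.0482 without Rnmt cKO library 3), so the labelled cell type carried its marker in every library. In total RNA, Cd2, Il2ra and Cd69 were increased and Cd3d, Cd3g, Cd5, Lck and Zap70 decreased (median of the 11 -0.16), which is 27.3% and 45.5% of the list beside 25.3% and 28.2% of all genes. In RPF 2 were increased and 5 decreased (median -0.17), or 18.2% and 45.5% beside 13.7% and 16.1%. Their summed total RNA level was 3963 to 4226 CPM in the controls and 3309 to 3671 CPM in the Rnmt cKO, led by Cd28 at a mean of 1092 CPM. Of the 2 CD8 T cell markers 0 were called in either kind, with edgeR, with DESeq2 and at an unadjusted edgeR p of 0.05 (Cd8a log2 -0.63, adjusted p = 0.350 in total RNA), and they summed to 21.4 to 41.7 CPM in the controls and 9.85 to 26.4 CPM in the Rnmt cKO.

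B cell markers moved with genotype in some libraries. Of 6 markers, 5 were tested in total RNA, where Cd79b (1.92, SE 0.50, edgeR adjusted p = 0.012) and Ms4a1 (2.18, SE 0.78, adjusted p = 0.0444) increased and Ighm, the most abundant at a mean of 244 CPM, decreased (-0.44, SE 0.10, adjusted p = 0.00621). Pax5 (2.26, edgeR adjusted p = 0.0578) missed the threshold. The median of the 5 was 1.92. In RPF, Cd79b and Ms4a1 were the 2 increased of 6 tested (median 2.08). Several of these calls changed when a library was left out. In total RNA that of Ms4a1 was lost without any 1 of libraries 1 and 2 of either genotype (edgeR adjusted p = 0.104 to 0.137) and its value was 3.49 without control library 3. Without that library Pax5 passed at a value of 3.50 (edgeR adjusted p = 0.0241), and it also passed without Rnmt cKO library 3 (0.0051). The Pax5 value was 1.63 without Rnmt cKO library 2. In RPF Ms4a1 was lost in the same 4 cases (edgeR adjusted p = 0.0873 to 0.116) and was 4.29 without control library 3, and Cd79b was lost without any 1 library other than Rnmt cKO library 3 (0.0528 to 0.115). With DESeq2 the calls of Ms4a1 (adjusted p = 0.0597 in total RNA and 0.0713 in RPF) and of Cd79b in RPF (0.0551) were lost. Calls of Cd79b and Ms4a1 were also lost with a replicate block. Pax5 had a value of 1.95 in RPF and passed there without control library 3 (edgeR adjusted p = 0.0176) or Rnmt cKO library 3 (0.0142). Its RPF value was 2.98 without control library 3 and 1.57 without Rnmt cKO library 2. Summed, the 6 were 290.2 to 306 CPM in the control and 206, 299 and 328 CPM in the Rnmt cKO total RNA, and in RPF 117 to 180 CPM and 88.3 to 320 CPM.

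Within the Rnmt cKO, the total RNA of Ms4a1, Pax5, Cd79b, Lad1 and Fam71b was highest in library 2 and lowest in library 3, and control library 3 was the highest control for each. This order did not hold over the whole B cell list. Ighm was 287, 284 and 272 CPM in the controls and 242, 195 and 187 CPM in the Rnmt cKO. Cd79a was 0.265, 0.265 and 0.431 CPM in the controls and 2.17, 2.06 and 0.432 CPM in the Rnmt cKO. Pax5, which defines B cells, was 1.86, 0.794 and 6.85 CPM in the controls and 17.4, 25.7 and 2.64 CPM in the Rnmt cKO. Ms4a1, which encodes CD20, was 3.13, 1.69 and 13.3 CPM in the controls and 33.7, 41.1 and 7.60 CPM in the Rnmt cKO. The genotypes overlapped for both of these markers. Cd79b was 1.80, 1.80 and 3.99 CPM in the controls and 10.7, 14.4 and 4.02 CPM in the Rnmt cKO, with library 3 nearly level between genotypes. Lad1 and Fam71b, at 8.41 and 2.32 CPM in control library 3, were 143 and 21.1 CPM in Rnmt cKO library 3. The part of B cells in the levels of Lad1 and Fam71b was not tested. No B cell marker was at 0 reads over the 6 libraries of a kind.

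**Figure D4:**
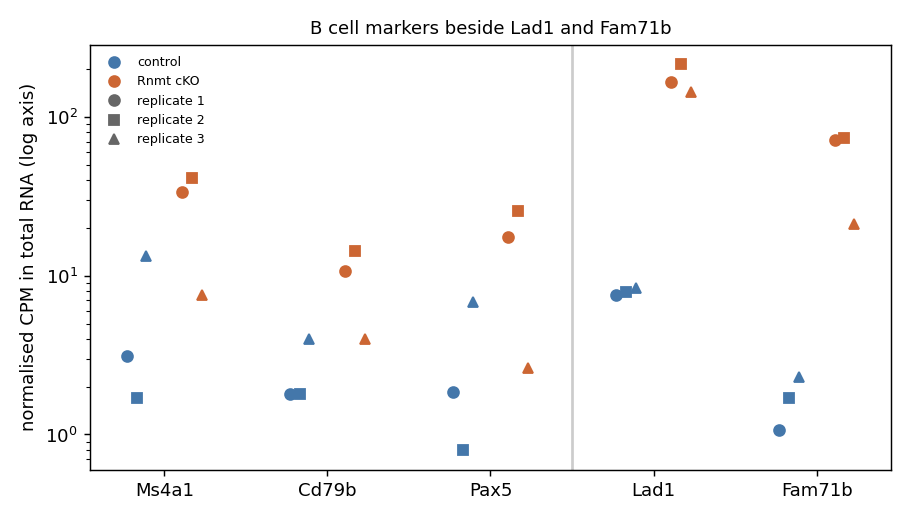
Normalised CPM in total RNA on a log axis for 3 of the 6 B cell markers (left of the line) and for Lad1 and Fam71b, one symbol per library. For Ms4a1 and Pax5 control library 3 (blue triangle) is above Rnmt cKO library 3 (orange triangle), for Cd79b the 2 are nearly level, and for Lad1 and Fam71b it is below.

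Markers of further cell types were scarce. Of 4 NK cell markers, Eomes, a T-box factor that T cells also express, was tested and increased in total RNA (3.13, SE 0.26, edgeR adjusted p = 5.9e-05) and in RPF (2.98, SE 0.31, adjusted p = 0.000406). It was 2.44, 3.02 and 3.23 CPM in control and 20.2, 35.7 and 20.5 CPM in Rnmt cKO total RNA. Ncr1, which defines NK cells, was at most 0.106 CPM in the controls and 0.389 to 0.619 CPM in the Rnmt cKO, and Klrb1c at most 0.0539 and 0.464 CPM. Summed over total RNA, the NK list was 2.71 to 3.45 CPM in the controls. In the Rnmt cKO it was 21.6 to 37.1 CPM. Most of either sum was Eomes, and the part of NK cells in the level of the pair was not tested. Of 6 myeloid markers none was tested in total RNA, where they summed to at most 1.02 CPM. In RPF 1 of them, Fcer1g, passed the filter, with 1, 1 and 0 reads in the controls and 11, 25 and 5 in the Rnmt cKO, and carries no test because it passed only through the latter. None of the 10 stromal and endothelial markers passed the filter in either kind, and they summed to at most 0.518 CPM in total RNA and 3.45 CPM in RPF.

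The genes whose pattern over the 12 libraries was most like that of each gene were listed by Pearson's r of log2 CPM, centred within total RNA and within RPF, among 10667 genes. The 5 most like Lad1 were Bhlhe40, a transcription factor of activated T cells, Pim1 and Pim3, which are kinases induced by cytokine signals, the anti-apoptotic Bcl2l1, and C330018D20Rik, with r from 0.992 to 0.993. Their total RNA log2 fold changes were 1.11 to 2.59. The 5 most like Fam71b were Ythdf2, a reader of methylated adenosine in RNA, the phosphatase Ppp5c, Atf6b, the helicase Ddx18 and Pofut1, with r from 0.979 to 0.991. Their total RNA log2 fold changes were 0.49 to 1.18, and those in RPF were lower, at 0.22 to 0.38. Lad1 and Fam71b had an r of 0.931 with each other, which was 458th for Lad1 and 188th for Fam71b. The points share 2 genotypes that differ in both genes, so the r values describe that difference above all.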

How the data were processed

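The authors removed adapters with Cutadapt and ribosomal RNA and tRNA reads with Bowtie. They aligned reads to mm10 with STAR 2.5.2b and the basic annotation of GENCODE vM12, and deposited whole-number counts per gene and strand. They also deposited normalised signal values per library, equal to the reverse-strand counts divided by 1 factor per library; their columns of fold changes and p-values were not used. Reverse-strand counts were analysed here with symbols and positions of GENCODE vM21 (49326 of 49585 identifiers matched). The filter was a CPM over 1 in 3 or more of the 6 libraries of a kind. Genes were tested with TMM normalisation and the quasi-likelihood test of edgeR 4.0.16 in R 4.3.3, p-values adjusted by Benjamini-Hochberg over all genes tested, threshold 0.05. TE was the interaction over 12 libraries, with TMM within each kind. At the depth given, the median SE of log2 fold changes over genes came to 0.101 (total RNA), 0.124 (RPF) and 0.16 (TE). After the values were seen, neighbours and list genes with a mean below 1 CPM in a genotype were left out of counts of calls. The labels number the replicates without saying that each came from its own mouse, so p-values measure the spread between these libraries, which may be technical. Named genes were the pair, Rnmt, the 4 nearest coding genes on each side, members of the lists and the 5 most alike by r (prior count 2); Gh, Slc1a2 and Arc were named after their values were seen. The pair, the lists and the motifs were chosen with earlier results of these data known. The fits were tested on simulated data. Other settings tried were DESeq2 1.42.0, no TMM, edgeR's exact test, other filters on low counts, both strands, a replicate block and each replicate left out. Figures were drawn with matplotlib. Some genes of the lists and neighbours are included in the counts but not reported here by name.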

Additional observations from a re-analysis of the deposited data

Results flagged for a closer look

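Fam71b had more RPF than total RNA CPM in all 3 control numbers and less in all 3 Rnmt cKO numbers. The log2 of RPF over total RNA was 1.32 within control and -1.49 within Rnmt cKO. It stands out because every number of one genotype lay on the other side of equality from every number of the other. Equality of CPM is not the level of the median gene, which lay at 0.19 within control and 0.20 within Rnmt cKO. Against that level Lad1 changed side as well, by less. The Fam71b difference was not tested, because Fam71b was chosen with these libraries known.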

How the results depend on the processing

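The log2 fold changes of Lad1 and Fam71b kept their sign in all 5 comparisons under every alternative run and moved by less than the spread between replicates. Lad1 values were 4.44 to 4.50 in total RNA, no lower than 3.92 in RPF, and -0.51 to -0.46 in TE. Fam71b values were 4.88 to 5.07, 2.15 to 2.22 and -2.87 to -2.78. With 1 library of a genotype left out (in TE both libraries of a number), those of Lad1 ranged over 4.30 to 4.60, 3.67 to 4.13 and -0.61 to -0.39, and those of Fam71b over 4.78 to 5.44, 1.89 to 2.42 and -3.15 to -2.41. Of the 6 neighbours counted in total RNA, 4 in place of 2 passed with the reads of both strands and 2 to 3 with a library left out, and in RPF 3 to 4 in place of 4. Genes increased in TE numbered 214 without a filter on low counts, in place of 346, and 122 to 367 with a number left out, the lowest without control 2. Genes decreased in TE numbered 415 to 812 in place of 701, the lowest without control 1; the cause was not tested. Below 0.5 CPM there were 73 near-silent genes in place of 331. Values near 0 changed sign without TMM, at 0.012 for Tmem9 in total RNA and 0.00094 for Cd4 in RPF. With a library left out, Tmem9 ranged from -0.112 to 0.0417 in total RNA, and in RPF Rab2b ranged from -0.0871 to 0.24 and Cd4 from -0.065 to 0.0021. Numbers did not pair the genotypes in total RNA, where same-numbered libraries had r of -0.62 to -0.26. Total RNA and RPF libraries of the same number had r of 0.16 to 0.37 in the controls and 0.06 to 0.32 in the Rnmt cKO. The highest r with another number was 0.05 and 0.07. With a replicate block, genes increased and decreased were 2455 and 2751 in total RNA, 1596 and 1636 in RPF and 426 and 777 in TE, and the calls of Cd79b, Ms4a1, Tmem9 and Rab2a were lost. The control level of Fam71b rests on 20 to 43 reads per library.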
